A study of Mus musculus with 5 samples.

Results

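Non-promoter regions open in all 5 stages are the DNaseI hypersensitive sites (DHSs) that were listed at every step from mesoderm to macrophage and lay away from the start of any coding gene. A DHS is a stretch of chromatin that the nuclease DNase I can cut, and DNaseI-seq maps these sites across the genome. Every listed site was centred in a window of 500 bp, and windows from any stage that overlapped were joined into merged regions. The members were selected on these calls: a region had to hold a window of all 5 stages, and its centre had to lie over 2 kb from every transcription start site (TSS) of a curated RefSeq coding transcript, so starts of predicted transcripts did not count. They number 1596 of 68846 merged regions. Of the 52345 non-promoter regions these 1596 are 3.05%, a share that the rule itself sets. The 9067 regions open in all 5 stages comprised these 1596 and 7471 promoter regions.

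The study followed blood formation in culture, starting from mouse embryonic stem cells of strain 129 with a GFP reporter in the mesodermal gene Brachyury (Bry). Mesoderm (MES) was sorted as Bry:GFP+ and Flk1-, hemangioblasts (HB) as Bry:GFP+ and Flk1+, hemogenic endothelium (HE) as Tie2+, cKit+ and CD41-, hematopoietic progenitors (HP) as CD41+, and macrophages (MAC) as CD11b+. All 5 populations thus share 1 reporter line and none was taken from an animal. Cultures beyond HB received cytokines, so that stage and culture conditions cannot be told apart. Each stage had 1 list of sites, so n = 1 per stage, and the title of the MAC sample names 2 replicates together. The lists hold positions only, and the depth behind them, which these positions do not show, was not used here. No spread between replicates can be given, and the intervals below cover counting error over regions only.

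Regulatory DNA that stays accessible while cells change identity falls into several known kinds. Insulators and loop anchors are bound by CTCF, a zinc finger protein that holds cohesin at the base of chromatin loops and occupies many of the same places in different cell types. CpG islands, stretches rich in unmethylated CpG, are commonly open in most tissues and usually mark promoters. Genes for transfer RNA (tRNA) and other small RNAs read by RNA polymerase III carry promoter elements of their own, among them the B box inside the tRNA gene, which the factor TFIIIC binds. Enhancers of blood genes, in contrast, are typically open at some stages only.

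The sequences that follow show the kinds of DNA found among the regions. All are from the reference GRCm38.p6, whose chromosomes are those of mm10, and are printed 5′ to 3′. The first set holds 6 regions with an exact match to the CTCF core consensus, 12 bases long, each shown with 20 bases on either side, on the strand of the match, with the match in capitals. They are the 4 such regions with the greatest width in their narrowest stage and those nearest to Ccnd2, which encodes the cell cycle regulator cyclin D2, and to Ctcf itself.
Chd2 (chr7:73618495-73618546, minus strand): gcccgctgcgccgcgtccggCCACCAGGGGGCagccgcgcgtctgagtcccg
Foxk1 (chr5:142367710-142367761, minus strand): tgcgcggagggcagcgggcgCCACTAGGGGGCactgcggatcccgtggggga
Stard10 (chr7:101310770-101310821, plus strand): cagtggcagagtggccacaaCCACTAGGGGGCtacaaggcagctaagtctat
B4galnt4 (chr7:141048407-141048458, minus strand): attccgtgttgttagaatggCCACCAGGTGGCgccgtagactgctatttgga
Ccnd2 (chr6:127147850-127147901, plus strand): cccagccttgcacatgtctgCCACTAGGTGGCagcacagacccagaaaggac
Ctcf (chr8:105622546-105622597, plus strand): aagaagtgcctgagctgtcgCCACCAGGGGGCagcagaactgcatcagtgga

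In Stard10 the match lay 3 bp from the centre of the region, and in B4galnt4 it lay 215 bp away. The second set holds 3 of the regions closest to the start of a tRNA gene among those with the B box GTTCGANNC, chosen after their values were seen and shown with 20 bases on either side of the B box, which is in capitals.
n-TFgaa5 (chr14:118089517-118089565, minus strand): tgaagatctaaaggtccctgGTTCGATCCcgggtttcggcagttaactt
n-TEttc1 (chr1:34434804-34434852, minus strand): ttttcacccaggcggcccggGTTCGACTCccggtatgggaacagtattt
n-TEttc6 (chr14:76152805-76152853, plus strand): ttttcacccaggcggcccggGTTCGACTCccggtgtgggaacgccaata

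The tRNA starts lay 9, 17 and 23 bp from the centres of these regions. The third set shows the central 200 bases of the 4 widest CpG-rich regions that held no CTCF match, on the plus strand, each named by its nearest coding gene, with every CG in capitals. Other regions tied with Zfp169 at 1500 bp in their narrowest stage. A region was called CpG-rich where G and C made up 0.5 or more of its central 500 bp and CpG reached 0.6 or more of the number that base composition predicts.
Esp38 (chr17:39844608-39844807): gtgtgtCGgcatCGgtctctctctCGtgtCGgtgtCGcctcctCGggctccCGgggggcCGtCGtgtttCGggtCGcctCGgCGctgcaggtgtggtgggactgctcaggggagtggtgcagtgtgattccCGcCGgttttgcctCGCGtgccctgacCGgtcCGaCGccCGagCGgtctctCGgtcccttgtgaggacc
Ppp2r3d (chr9:124424026-124424225): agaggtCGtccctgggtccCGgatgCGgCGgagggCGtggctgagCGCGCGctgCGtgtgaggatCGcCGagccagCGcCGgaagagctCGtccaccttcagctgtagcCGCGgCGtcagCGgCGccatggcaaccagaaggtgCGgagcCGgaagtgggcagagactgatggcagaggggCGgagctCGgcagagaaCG
Aurkb (chr11:69040714-69040913): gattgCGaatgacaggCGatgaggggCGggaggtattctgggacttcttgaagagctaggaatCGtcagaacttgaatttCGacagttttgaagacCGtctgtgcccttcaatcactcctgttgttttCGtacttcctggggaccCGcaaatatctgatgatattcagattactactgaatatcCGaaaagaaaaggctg
Zfp169 (chr13:48546098-48546297): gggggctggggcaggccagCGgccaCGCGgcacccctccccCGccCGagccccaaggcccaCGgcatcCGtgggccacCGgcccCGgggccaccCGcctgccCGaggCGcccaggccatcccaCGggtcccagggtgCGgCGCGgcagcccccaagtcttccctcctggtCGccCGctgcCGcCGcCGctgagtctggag

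The stretch near Ppp2r3d held 24 CG pairs in 200 bases and that near Esp38 held 23, whereas that near Aurkb held 9. The fourth set shows the 4 widest regions that were neither CpG-rich nor matched by the CTCF consensus, with a B box in capitals where there was one.
Gm2237 (chr14:19417547-19417746): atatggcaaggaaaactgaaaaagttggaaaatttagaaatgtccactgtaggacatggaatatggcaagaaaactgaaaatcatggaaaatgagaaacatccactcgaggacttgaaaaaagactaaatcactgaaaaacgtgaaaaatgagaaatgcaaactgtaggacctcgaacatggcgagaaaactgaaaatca
Kdm6b (chr11:69418334-69418533): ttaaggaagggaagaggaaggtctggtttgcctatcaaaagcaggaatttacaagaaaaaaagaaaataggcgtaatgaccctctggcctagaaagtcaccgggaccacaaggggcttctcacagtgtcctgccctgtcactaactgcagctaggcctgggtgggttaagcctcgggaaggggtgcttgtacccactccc
Ly6c2 (chr15:75086283-75086482): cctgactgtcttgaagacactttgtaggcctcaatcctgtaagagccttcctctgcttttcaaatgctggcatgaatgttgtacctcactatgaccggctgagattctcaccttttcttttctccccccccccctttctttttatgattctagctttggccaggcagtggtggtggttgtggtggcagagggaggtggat
Pllp (chr8:94703583-94703782): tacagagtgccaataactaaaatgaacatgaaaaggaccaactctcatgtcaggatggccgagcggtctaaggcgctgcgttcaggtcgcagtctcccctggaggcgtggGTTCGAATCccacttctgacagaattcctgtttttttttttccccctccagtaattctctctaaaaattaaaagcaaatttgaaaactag

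The stretch near Gm2237 repeats a short unit, and 81.0% of its central 500 bp was repeat-masked in the reference. The stretch near Pllp contained the leucine tRNA gene n-TLcag5, whose start lay 52 bp from the centre. The last set shows the 2 regions within 50 kb of the start of Tal1, the gene of a basic helix-loop-helix factor that blood formation requires. They were searched on either strand for the E-box CAGCTG, the GC box GGGCGG (a site of SP and KLF factors), and the GATA, RUNX and ETS sites spelled out further on, and matches are in capitals.
Tal1 (chr4:115052691-115052890): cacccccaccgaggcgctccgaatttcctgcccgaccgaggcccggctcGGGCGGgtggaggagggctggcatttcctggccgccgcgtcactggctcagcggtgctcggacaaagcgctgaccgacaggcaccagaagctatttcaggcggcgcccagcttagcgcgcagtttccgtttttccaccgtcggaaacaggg
Pdzk1ip1 (chr4:115095986-115096185): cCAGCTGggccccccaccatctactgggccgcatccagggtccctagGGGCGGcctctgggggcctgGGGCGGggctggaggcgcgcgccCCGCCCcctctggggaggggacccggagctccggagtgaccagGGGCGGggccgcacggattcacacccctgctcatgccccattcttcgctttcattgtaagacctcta

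The Tal1 region lay 3635 bp upstream of the first Tal1 start and held 1 GC box in its central 200 bases. The region named for Pdzk1ip1, the coding gene nearest to it, lay 39.7 kb downstream of the first Tal1 start and held 1 E-box and 4 GC boxes. Its central 500 bp also held a CTCF match with 1 mismatch, which is not marked here, whereas the Tal1 region held no CTCF match. Neither stretch held the GATA, RUNX or ETS letters.

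The 5 lists contributed unequal shares of their sites. The 1596 sites from MES were 7.27% of that list, and for HB, HE, HP and MAC the shares were 6.45%, 4.79%, 9.00% and 4.26%. In 1 region the MAC list had more than 1 site. The promoter regions open in all 5 stages took 34.1% of the MES list and 42.1% of the HP list. As a check of the labels, a site came within 1 kb of a start of T (the gene of Bry) in MES and HB only, of Tek (Tie2) in HE only, of Itga2b (CD41) in HE and HP only, and of Itgam (CD11b) in MAC only. Kdr (Flk1) had such a site in all 5 lists, MES included, and Kit in all but MAC.

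Deposited sites in these regions were wider than other non-promoter sites in each list. In MES the median width was 800 bp, with quartiles of 600 and 1000 bp. HB, HE, HP and MAC had medians of 1000, 1400, 900 and 700 bp. Sites in the other non-promoter regions had medians of 500, 700, 1000, 600 and 500 bp, in the same order of stages. HE gave the widest site of a region, with no tie, in 1250 of 1596 regions, and MAC gave the narrowest in 758. These orders follow the widths of the whole lists, and since the same calls chose the members, they are a description with no test.

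Width also differed between kinds of region. The 447 regions with a CTCF match that were not CpG-rich were the narrowest, at medians of 600, 800, 1100, 700 and 500 bp from MES to MAC. The 392 CpG-rich regions without a CTCF match had medians of 1000, 1200, 1500, 1100 and 900 bp, within 100 bp of the promoter regions open in all 5 stages in every list. The rank correlation of widths between stages across the 1596 regions ranged from 0.453 for MES with MAC to 0.766 for MES with HB over the 10 pairs of stages. Regions are not independent samples, and the paired widths come from 1 locus each, so these are descriptions.

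**Figure D1:**
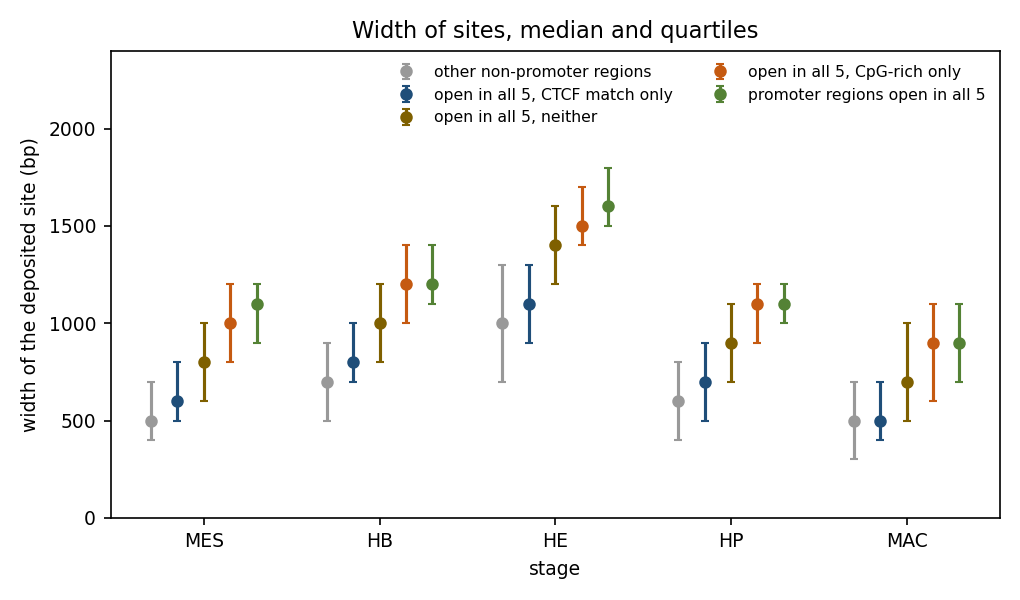
Width of the deposited DHSs in bp on the vertical axis for each stage on the horizontal axis, as the median (points) and quartiles (bars), for other non-promoter regions, for 3 kinds of non-promoter region open in all 5 stages, and for promoter regions open in all 5 stages. Regions with only a CTCF match sit close to the other non-promoter regions (500 bp for both in MAC), and CpG-rich regions sit close to promoters (900 bp for both in MAC).

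The members near the limits of the rule were as follows. Just beyond 2 kb lay intronic regions 2022 bp upstream of a start of Il17rc, 2027 bp downstream of one of Fbp2 and 2060 bp upstream of one of Brox. These are the nearest coding starts, and the gene whose intron held each region was not determined. Just within it, and so not counted, lay regions of Tob2 (1987 bp), Atpif1 (1978 bp) and Tm9sf2 (1960 bp). The middles of the 5 sites of a region spanned 18 to 895 bp, with a median of 187 bp. With a minimum overlap of 100 bp or 150 bp between windows, 1606 or 1578 regions were found. In 6 regions the narrowest site was a single bin of 100 bp.

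The CTCF consensus was found more often in these regions than in the other non-promoter regions. With at most 1 mismatch, it occurred in the central 500 bp of 539 of 1596 regions, or 33.8% (95% Wilson interval 31.5 to 36.1), beside 13.8% of all 52345 non-promoter regions. In the 50749 other non-promoter regions the share was 13.2% (12.9 to 13.5), a difference of 20.6 percentage points (95% Newcombe interval 18.3 to 23.0). An exact match was present in 215 regions, 13.5%, compared with 3.59% of the others. In regions open in 4 stages it was present in 11.5%, and the interval of the difference held 0 (1.98 points, -0.266 to 4.24). The consensus read backwards matched 1.38% of these regions, 0.922% of the other non-promoter regions and 2.9% of promoter regions open in all 5 stages. It keeps the base composition but begins with CG, a pair that the consensus itself lacks. It is therefore not a matched background for the CTCF share.

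The share of CTCF matches was graded by the number of open stages. It was 9.79% in regions open in 1 stage, 19.1% in 2, 24.8% in 3 and 33.1% in 4. Regions open in 4 and in all 5 stages did not differ beyond counting error (difference 0.669 points, interval -2.53 to 3.87). Among regions open in 4 stages, the share depended on the stage without a site. It was 47.7% where HP was missing, 47.4% where HE was missing and 46.8% where HB was missing, but 24.6% where MAC and 22.3% where MES was missing. Promoter regions open in all 5 stages had the consensus in 8.77%.

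**Figure D2:**
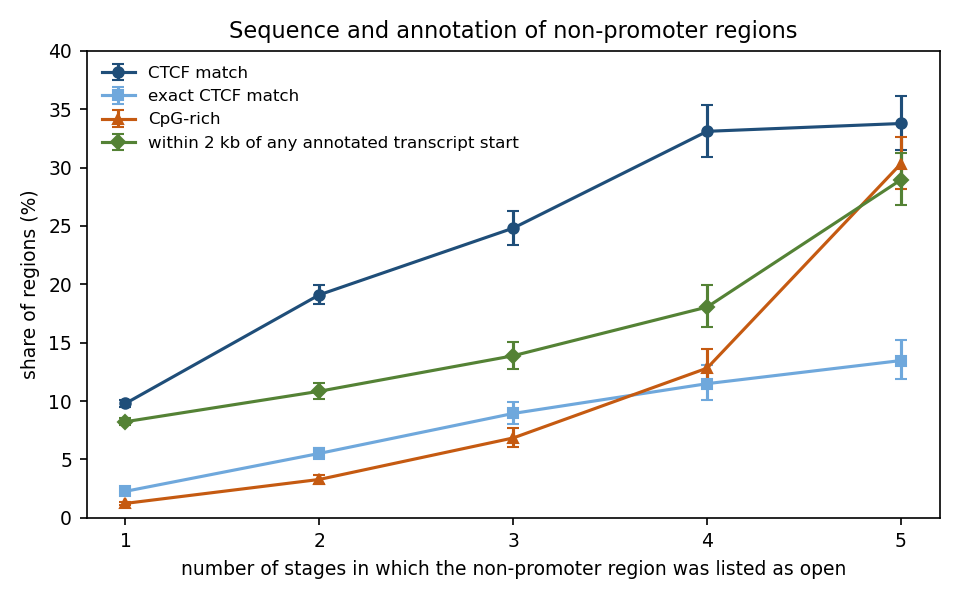
Share of non-promoter regions in percent (vertical axis) with a CTCF match, an exact CTCF match, a CpG-rich centre or any annotated transcript start within 2 kb, by the number of stages in which the region was listed as open (horizontal axis). Points are shares with 95% Wilson intervals, and CTCF matches level off between 4 and 5 stages (33.1% and 33.8%) where CpG-rich regions go from 12.8% to 30.3%.

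The matches lay near the middle of the regions. The nearest match was within 100 bp of the centre in 325 of 539 regions (60.3%), at a median distance of 79 bp. In bins of 50 bp, the central 200 bp held a match in a mean of 5.70% of regions per bin, compared with 0.858% per bin at 500 to 1000 bp from the centre, a ratio of 6.64. The same ratio was 7.62 for regions open in 4 stages, 2.58 for regions open in 1 stage and 1.46 for promoter regions open in all 5 stages. Both strands were used about equally, the plus strand in 264 and the minus strand in 275 regions. More than 1 match occurred in 105 regions, 6.58%, compared with 0.954% of the others and 3.74% of regions open in 4 stages.

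**Figure D3:**
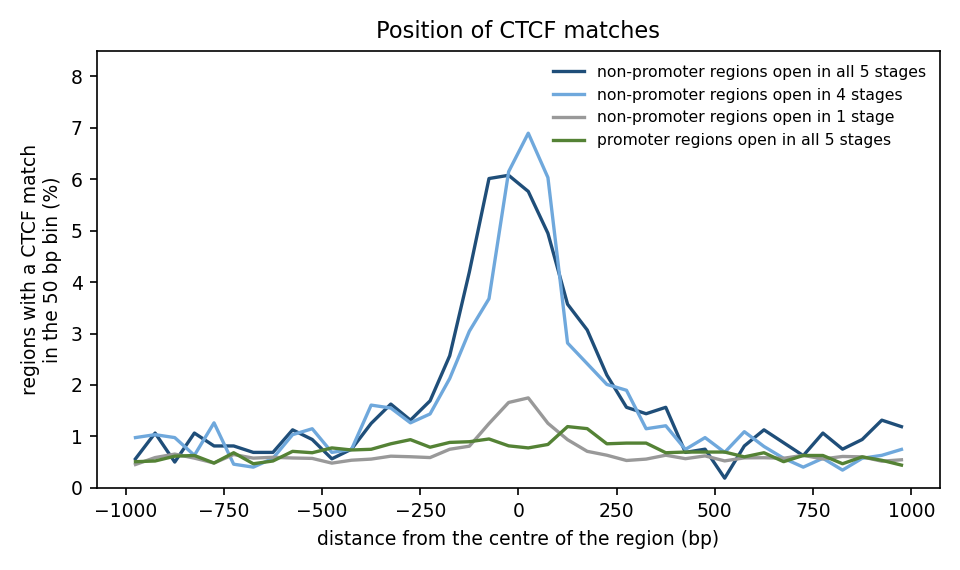
Share of regions in percent with a CTCF match in each bin of 50 bp (vertical axis) against the distance of the bin from the centre of the region in bp (horizontal axis), for 4 sets of regions. Non-promoter regions open in all 5 and in 4 stages both peak at the centre, where the 5-stage regions reach 6.08% in 1 bin, and promoter regions show no such peak.

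The CTCF difference depended on which sites were kept by width. When each list was cut to its 17734 widest sites, the length of the HP list, 739 regions remained open in all 5 stages, the CTCF share was 19.6% and the difference was 5.50 points (2.76 to 8.54). Base composition moved with the set too: the median GC content was 55% in these regions and 48.4% in the others. Among regions of 50 to 60% GC that were not CpG-rich, 42.1% of 674 regions and 17.2% of 17827 others had a CTCF match, a difference of 24.9 points (21.2 to 28.7).

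CpG-rich DNA was the second feature of the set. It was present in 484 of 1596 regions, 30.3% (28.1 to 32.6), beside 3.21% of all non-promoter regions and 2.36% of the other non-promoter regions, a difference of 28.0 points (25.8 to 30.3). Regions open in 1, 2, 3 and 4 stages were CpG-rich in 1.24%, 3.29%, 6.84% and 12.8%, so that the step from 4 to 5 stages was 17.5 points (14.8 to 20.3). Promoter regions open in all 5 stages were CpG-rich in 88.6%. When each list was cut at its median site width, the CpG-rich share of the regions open in all 5 stages was 53.4% of 521 regions, more than 1.5 times the value over all sites. CpG-rich DNA and CTCF matches coincided in 92 regions, and 665 regions (41.7%) had neither. A CTCF match was present in 92 of the 484 CpG-rich regions (interval 15.8 to 22.7%), which overlapped the 15.4% (13.5 to 17.6) of CpG-rich regions among the others. Outside CpG-rich DNA it was present in 40.2%, compared with 13.1% of the others.

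These regions lay nearer to coding genes than the other non-promoter regions. The centre lay over 20 kb from a coding start in 678 regions, 42.5% (40.1 to 44.9), compared with 60.3% of the others and 46.4% of regions open in 4 stages (difference from the latter -3.90 points, -7.26 to -0.522). Beyond 100 kb lay 7.58%, compared with 17.8% of the others and 8.91% of regions open in 4 stages, where the interval of the difference held 0 (-3.19 to 0.552). Their median distance was 15.6 kb against 28.6 kb, given here in the terms of the rule, which fixed only its lower end. By RefSeq gene structure 976 regions (61.2%) were intergenic and 459 (28.8%) intronic, and the others had 47.8% and 48.0%. Exons of non-coding transcripts held 57 regions, 3.57% compared with 0.702%. Both features were more frequent than in the others in each of the 2 distance bands compared. CpG-rich DNA made up 29.8% of regions up to 20 kb from a coding start and 31.0% beyond, compared with 3.48% and 1.62% of the others, and CTCF matches 35.2% and 31.9%, compared with 15.8% and 11.4%.

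Many of the regions were at the start of a transcript that the rule did not count. An annotated start of any kind, predicted or non-coding transcripts included, lay within 2 kb in 462 regions, 28.9% (26.8 to 31.2), beside 9.99% of all non-promoter regions and 9.39% of the others. Of regions open in 4 stages, 18.05% had such a start. In 218 of the 462 the nearest such start belonged to a long non-coding RNA, in 137 to a predicted coding transcript, in 53 to a tRNA and in 19 to a small nuclear RNA. Regions near such a start were CpG-rich in 51.9%, and the 1134 regions without one in 21.5%. The share of CTCF matches went the other way, 19.3% near a start and 39.7% away from one. The 1134 regions without any start still exceeded their counterparts among the others, which had CpG-rich DNA in 1.68% and a CTCF match in 13.2%.

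Genes for small RNAs stood near these regions more often than near the others. A tRNA start lay within 2 kb of 59 regions, 3.70% (2.88 to 4.74), beside 0.336% of all non-promoter regions and 0.230% of the others. In regions open in 4 stages the share was nearer, at 1.67% (difference 2.03 points, 0.941 to 3.19). In 55 of the 59 regions the tRNA start lay within 500 bp. Small nuclear RNA starts, most of which serve the spliceosome, were within 2 kb of 23 regions (1.44% compared with 0.179%). Small nucleolar RNA starts, whose products guide the modification of ribosomal RNA, were near 16 regions (1.00% compared with 0.142%), and microRNA starts near 14 (0.877% compared with 0.343%). For microRNA the share was close to the 0.747% of regions open in 4 stages (difference 0.130 points, -0.505 to 0.796). Long non-coding RNA starts were near 238 regions, 14.9% compared with 5.49%. In regions open in 4 stages the shares were 0.402% for small nuclear RNA, 0.230% for small nucleolar RNA and 10.2% for long non-coding RNA. The classes were looked at after the annotation of the regions had been seen.

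**Figure D4:**
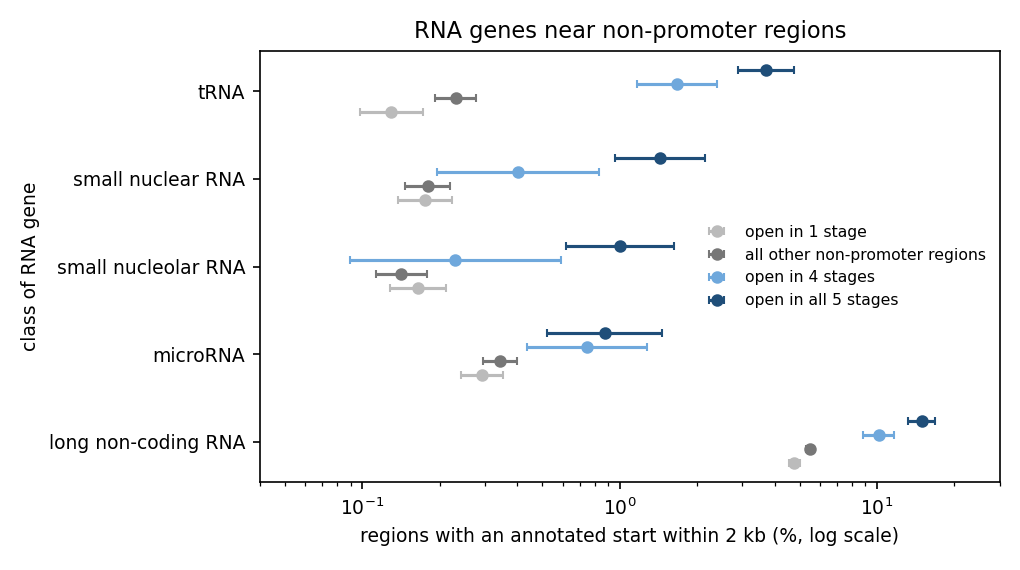
Share of regions in percent with an annotated start of each class of RNA gene within 2 kb (horizontal log axis) for 5 classes (vertical axis), with 95% Wilson intervals, for non-promoter regions open in 1 stage, in 4 stages, in all 5 stages and for all those not open in all 5. The tRNA genes show the widest separation, from 0.130% of regions open in 1 stage to 3.70% of regions open in all 5.

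The regions at tRNA genes were wide and seldom carried a CTCF match. From MES to MAC their median widths were 1100, 1300, 1700, 1100 and 900 bp, above the medians of the whole set in every list. They were near the 1000, 1200, 1500, 1100 and 900 bp of the CpG-rich regions without a CTCF match, so width did not set them apart from these. Of the 59, 35 were CpG-rich and 3 had a CTCF match. The B box GTTCGANNC, searched on both strands, occurred in 30 of the 55 regions within 500 bp of a tRNA start (54.5%). It occurred in 2.08% of all other regions open in all 5 stages and in 1.14% of the other non-promoter regions. Since the B box is part of the tRNA gene, this contrast follows from how the 55 were chosen and describes their sequence only. Taking the tRNA gene nearest to each of the 59 regions, the gene names covered 20 amino acid letters and 33 anticodons. Of the 425 tRNA starts in the annotation, 97 lay within 2 kb of 1 of these regions. More, 138, lay near the far more numerous other non-promoter regions, and 35 near a promoter region open in all 5 stages.

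Several other small RNA genes were identified by name, chosen after the values were seen. Rn7sk, the gene of 7SK RNA, a regulator of transcription elongation, had a start 557 bp from the centre of a CpG-rich region at chr9:78175751-78176629, with site widths from 800 to 1700 bp. Both annotated Y RNA genes, Rny1 and Rny3, lay within 2 kb of such regions near Pdia4. Tex14 was the nearest coding gene of 4 regions, all intronic and all near small RNA genes. Rnu1a1, which gives the U1 RNA of the spliceosome, was at 347 bp from a region upstream of a Tex14 start. Rnu3b1, Rnu3b3 and Rnu3b4, which give U3 RNA, were at 327, 462 and 401 bp from regions downstream of one. The region at Rnu1a1, chr11:87422711-87423716, was 1500 bp wide in HB, 1700 bp in HE and 1200 bp in the other lists. Near Rnu11 (U11), Rnu5g (U5) and Rnu2-10 (U2), widths in MAC were 1000, 1600 and 800 bp. The Rnu5g region was repeat-masked over 75.8% of its central 500 bp.

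Short consensus sequences of transcription factors differed in both directions: the GATA, RUNX, PU.1, TEAD and AP1 sites were less frequent than in the others, and the GC box and the ETS, NRF1 and NFY sites were more frequent. The GATA site AGATAA was present in 14.9% compared with 27.7% of the others (difference -12.8 points, -14.5 to -10.9), and the RUNX site TGTGGT in 24.6% compared with 37.7% (difference -13.1 points, -15.2 to -10.9). The PU.1 site GAGGAAGT occurred in 5.01% compared with 9.61%. The TEAD site CATTCC occurred in 24.7% compared with 29.4%, and the AP1 site TGANTCA in 18.5% compared with 27.5%. In the other direction, the GC box GGGCGG occurred in 47.2% compared with 13.5%, the ETS site CCGGAAG in 11.3% compared with 3.50%, and the NRF1 site CGCATGCG in 2.32% compared with 0.183%. The Tal1-type E-box CAGCTG did not differ beyond counting error, at 30.8% and 32.4% (difference -1.62 points, -3.87 to 0.725).

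Beside regions open in 4 stages the picture was narrower. The E-box was less frequent than in those regions (difference -6.25 points, -9.44 to -3.03), and so were the GATA site (-6.47 points, -9.06 to -3.85), the RUNX site (-7.68 points, -10.7 to -4.62) and the TEAD site (-7.04 points, -10.1 to -3.98). For PU.1 (-0.849 points, -2.39 to 0.706) and AP1 (-2.09 points, -4.77 to 0.615) the interval held 0. The GC box was more frequent by 12.6 points (9.26 to 15.9) and the ETS site by 3.93 points (1.95 to 5.93).

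The differences from the other non-promoter regions were smaller for GATA, RUNX, AP1, TEAD, PU.1, the GC box and ETS among regions of like GC content. Within 50 to 60% GC and outside CpG-rich DNA, the difference was -4.37 points for GATA (-7.08 to -1.29), -7.71 for RUNX (-11.1 to -4.08), and -0.434 for AP1 with an interval that held 0 (-3.53 to 2.96). For TEAD it was -2.93 points (-6.25 to 0.635), which also held 0, as did the interval for PU.1 (-1.57 points, -3.35 to 0.679). The GC box kept a difference of 15.7 points (12.1 to 19.4) and the ETS site 5.23 points (3.15 to 7.75). The NFY site CCAATCA, which occurred in 10.2% compared with 5.77% in the full comparison, had a difference of 4.64 points in this GC range (2.55 to 7.18). The intervals count regions, and no p-value was computed for any of the 18 short sites.

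The listed genes of blood formation, cell identity and the cell cycle are given by their counts. Within 100 kb, counting the nearest coding gene, 1475 regions belonged to 1296 genes, 3.42% of the 43185 non-promoter regions in that range. The 16 transcription factor genes of the study's list had 5, which were 4.03% of their non-promoter regions, Yap1 and Tead1 to Tead4 had 0 of 23, the genes of the sorting markers with Csf1r had 1 of 55, imprinted genes had 1 of 50, globin genes 0 of 3 and Hox genes 1 of 54. Genes of chromatin architecture had 2 of 27 (7.41%), and cell cycle genes 4 of 60 (6.67%). These counts are small, and the shares lie on both sides of the 3.42% over all genes.

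Among the transcription factor genes, Tal1 and Gata2, whose product acts in blood stem and progenitor cells, each had a CpG-rich region upstream. The Tal1 region, chr4:115052468-115053114, had widths of 600, 900, 1300, 700 and 600 bp from MES to MAC. The Gata2 region, chr6:88189500-88190558, lay 3862 bp upstream and was 800, 1500, 1800, 900 and 600 bp wide in the same order, and it overlapped an enhancer fragment that RefSeq lists under Gata2. Both were widest in HE and narrowest in MAC, where Tal1 tied with MES.

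Spi1, which encodes PU.1, the factor of the myeloid line, had a region with a CTCF match in an intron at chr2:91101320-91101919, 4920 bp downstream of a start. From MES to MAC its sites were 500, 600, 600, 700 and 200 bp wide, narrowest in MAC as in 758 of the 1596 regions. Nanog, a gene of pluripotency, had a region with a CTCF match 37849 bp upstream at chr6:122669350-122669929, with widths of 700, 900, 800, 800 and 300 bp from MES to MAC. Cebpb, which encodes a factor of myeloid and fat cells, had a region 88805 bp downstream at chr2:167777270-167778169, which lay 8 bp from the start of a predicted long non-coding RNA. Of the sorting markers, Itga2b had a CpG-rich intronic region 2669 bp downstream, chr11:102466861-102467566, with widths between 800 and 1000 bp in all 5 lists, MES included.

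The regions near Ctcf and Yy1, both genes of chromatin architecture, carried CTCF matches. The Ctcf region, chr8:105622376-105623094, lay 13803 bp upstream of the gene and was 1000 bp wide or more in each list. Kcnq1, an imprinted gene of a potassium channel, had an intronic region at chr7:143153831-143154776, 400 bp wide in MES and 900 to 1600 bp in the later stages. Among cell cycle genes, Ccnd2 and Ccnd3 had intronic regions with CTCF matches, and Cdkn1a and Cdkn1b, genes of the inhibitors p21 and p27, had regions 9321 bp upstream and 8032 bp downstream. The Cdkn1b region was CpG-rich and lay 659 bp from the start of the long non-coding RNA Lockd. The 1 Hox region lay near Hoxd3, 235 bp from the start of Hoxd3os1.

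A few genes had several of these regions. Chd2, which encodes a chromatin remodeler, had 5, of which 4 were CpG-rich. They ran from an intron 3794 bp inside the gene to the CTCF site shown above, 76647 bp upstream, and the second lay 273 bp from the start of the long non-coding RNA Chaserr. Actg1, the gene of cytoplasmic gamma actin, Irf2bp2, Nanos3, Tex14, Trak1 and Zfp516 had 4 each, 22 genes had 3 and 113 had 2. The Nanos3 regions lay in a run from chr8:84186576-84204192 beside the microRNA genes Mir181c and Mir23a, at 4809 to 13448 bp from their starts. In that run the region farthest from Nanos3 had widths of 800, 1100, 1800, 1400 and 2100 bp from MES to MAC, and so was widest in macrophages. In total 152 of the 1596 regions (9.52%) had another within 10 kb, in 63 pairs and 7 longer runs.

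Some of the regions were in the RefSeq catalogue of functional elements. A catalogued element overlapped 37 regions, 2.32% (1.69 to 3.18), compared with 0.786% of the others and 2.76% of regions open in 4 stages. Of these, 29 were enhancers of the VISTA collection, which holds elements tested in mouse embryos, 5 were listed as cis-regulatory regions, and 1 was a DHS near Pax5. VISTA enhancers lay in regions near Fos and Fosb, genes of AP1 subunits, near Btg2, Fgfr1, Ski and Dot1l, and at the Rnu1a1 region of Tex14, named here after their values were seen. Of the 29, 5 had a CTCF match and 6 were CpG-rich. Near Mcl1, the gene of a survival factor, a region 13149 bp from the start overlapped a listed cis-regulatory region and lay at chr3:95645266-95645877.

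The density of these regions differed between chromosomes. On the autosomes it was 0.632 per Mb, and it ranged from 0.376 on chromosome 14 to 1.22 on chromosome 8 and 1.13 on chromosome 11. Chromosome 11 was also the densest in promoter regions open in all 5 stages (5.32 per Mb), whereas chromosome 8 had 3.52. The 158 regions of chromosome 8 had a CTCF match in 46.2% (38.6 to 54.0), compared with 32.4% on all other chromosomes together, and were CpG-rich in 19.6% compared with 31.5%. Among other non-promoter regions, CTCF matches were present in 13.7% on chromosome 8 and 13.1% elsewhere. The 10 Mb stretch with most regions, 38, ran from 120 to 130 Mb on chromosome 8. Chromosome 8 was singled out after its values were seen, and it was not extreme on each measure: chromosome 15 had a CTCF match in 47.4% of its 57 regions, and the regions of chromosome 8 were 3.88% of its non-promoter regions, close to 3.96% on chromosome 7 and 3.85% on chromosome 4.

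**Figure D5:**
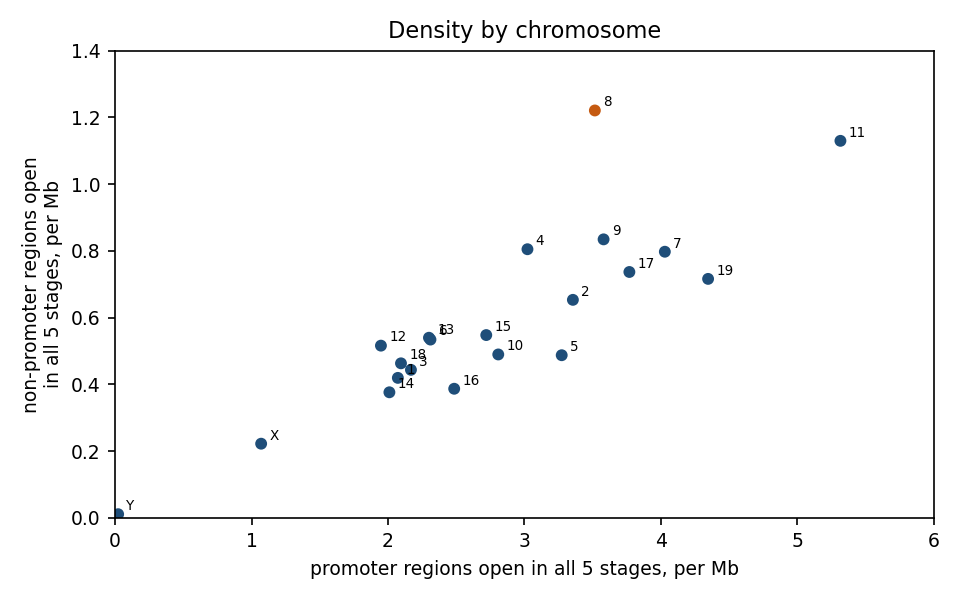
Non-promoter regions open in all 5 stages per Mb (vertical axis) against promoter regions open in all 5 stages per Mb (horizontal axis), 1 point per chromosome, with chromosome 8 in orange. Chromosome 8 lies above the others, at 1.22 regions per Mb with 3.52 promoter regions per Mb.

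The regions that were widest in their narrowest stage differed in how much of them was repeat-masked. The widest, chr14:19417336-19417957 near Gm2237, was repeat-masked over 81% of its central 500 bp, whereas those near Esp38, Ppp2r3d, Kdm6b and Aurkb were masked over 8.4%, 0%, 10.4% and 2%. Masking does not count copies in the genome, and whether any of these sequences occurs in many copies was not tested. The Gm2237 region had sites of 3500, 3400, 3500, 3600 and 3600 bp from MES to MAC. The next, chr17:39844374-39845041, had 3000 bp in each list and a GC content of 68.8%. A region at chr9:124423801-124424450 had 2500 to 2900 bp. The fourth, chr11:69418107-69418760, lay 2240 bp from a start of Kdm6b, which encodes a histone demethylase, and had 1800 to 2200 bp. At the fifth place 3 regions tied at 1700 bp in their narrowest stage, those near Aurkb (at the tRNA gene n-TDgtc9), Pllp and Ly6c2. In the first 3 the widths of the 5 lists lay within 400 bp of each other.

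Over 50% of the central 500 bp was repeat-masked in 35 regions (2.19%, compared with 1.95% of the others). Of these, 7 lay near the start of the chromosome 9 assembly, 6 of them in the run chr9:3015180-3036329, were masked over 92.6% to 98.6%, and had widths between 500 and 1700 bp. The 2 regions on chromosome 2 farthest from a coding gene, near Lrrc4c at 1195140 and 1199152 bp, were masked over 55.4% and 98.8%. The region farthest from any, 1409034 bp, was the only one on chromosome Y. A region at chr1:24612553-24613190 matched the mitochondrial genome over at least 100 bp, which none of the 50749 other non-promoter regions did, and had widths of 700 to 1200 bp. The part of repeats in the calls was not tested, and without the 35 regions the CTCF share was 34.2% and the CpG-rich share 30.9%.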

How the data were processed

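DNaseI-seq was carried out on 5 sorted populations, 1 sample each. Per the published methods, the authors trimmed reads, aligned them to mm10 with Bowtie, removed duplicates and ran DFilter on 100 bp bins to call sites. The submitters' processing notes also name HOMER. What was deposited are positions (start and end in bp) with no score, count or height. Versions are not given in the sources used here.

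Sites were set to windows of 500 bp and joined where they overlapped by at least 125 bp. RefSeq on GRCm38.p6 gave 26032 TSS of curated coding transcripts of 21000 genes. Sequence came from the central 500 bp and was searched on both strands for a CTCF core consensus of 12 positions with at most 1 mismatch and for 18 short consensus sequences. Shares have 95% Wilson intervals and differences Newcombe intervals, with no test, since n = 1 per stage. Similarity to the mitochondrial genome was searched with blastn 2.17.0 and sequence was read with pysam 0.24.0 in Python 3.11.15. Scripts were tested on simulated data.

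Genes were named by rule: fixed lists within 100 kb, the 8 genes with most regions (ties kept), the 5 widest, the 3 farthest and those nearest to the 2 kb limit. Printed stretches are the central 200 bases of 4 regions in each of 3 classes and at Tal1; for CTCF matches the stretch was instead centred on the match, after 3 of the 4 were seen to lie outside the central 200 bases. The members and lists were chosen with earlier results of these data known. Other overlaps, site filters, TSS sets and motif settings were tried. Some items are not reported here.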

Additional observations from a re-analysis of the deposited data

How the results depend on the processing

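No paired analysis was possible because each stage has 1 list. Of the 45 alternative values, 22 lay within the interval of the main value (or within 1.5 times a count) and 23 did not. Only the CTCF difference could change sign, since counts and shares cannot be negative, and it kept its sign in each alternative. Merging the deposited intervals on any overlap gave a CTCF share of 28.7%, a difference from the other regions of 15.9 points and a CpG-rich share of 26.8%. Keeping the widest sites up to the shortest list gave 739 regions, a CTCF share of 19.6%, a difference of 5.50 points and a CpG-rich share of 44.9%. Keeping sites at or above the median width gave 521 regions, 16.5%, 7.17 points and 53.4%. Without the HP list these were 36.9%, 24.0 points and 26.1%. With the TSS of all annotated transcripts they were 39.7%, 26.5 points and 21.5%. Beyond 5 kb from a coding TSS, 51.0% of regions lay over 20 kb away, since the nearest ones were removed. Searching the central 200 bp gave a CTCF share of 20.6% and a difference of 12.6 points, and exact matches 13.5% and 9.89 points. The stricter CpG definition gave 22.3%. Where no reason is given, the cause was not tested. Leaving out repeat-masked regions, an alternative chosen after seeing the data, changed none of the 5 results beyond these limits. The widths have no alternative. The lists hold no read counts and the depth of each library was not used here, so how far depth limits an absence of a site was not tested.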
